A study of Caenorhabditis elegans with 2 samples.

Results

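The mitochondrial genome of Caenorhabditis elegans carries 12 protein-coding genes, and 10 of them are described here by the anti-GFP chromatin immunoprecipitation signal that lay on them. The 10 genes are CYTB, ND5, COX3, ND4, COX2, ND1, ATP6, COX1, ND2 and ND3, out of 19983 protein-coding genes in the reference annotation. They were chosen from these same peak lists, so their signal values are a description and were not tested. Each listed region was given to the protein-coding or rRNA gene of the mitochondrial genome in which its summit lay, or else to the nearest of these 14 genes. The samples were 2 biological replicates of 1 group. Both came from whole young adult hermaphrodites of strain OP543, taken 64 hours after synchronization by starvation of L1 larvae obtained by bleaching. The animals stably carried SDZ-38 with a GFP-FLAG tag at its C-terminus, and the label of the source also names an insertion aimed at sdz-38. The antibody was directed at GFP according to the description, although the antibody field reads sdz-38. No library without the tagged protein was analysed here, so the values do not show whether SDZ-38 itself was at these sites.

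The products of these genes sit in the inner mitochondrial membrane and form the core of oxidative phosphorylation. The ND proteins belong to complex I, which takes electrons from NADH. CYTB belongs to complex III, the COX proteins to complex IV, which passes electrons to oxygen, and ATP6 to complex V, which makes ATP. The genes have no introns, are packed closely with tRNA genes between many of them, and are read from 1 strand. All 36 annotated mitochondrial genes, 22 of them for tRNA and 2 for rRNA, were on the plus strand. Most subunits of the same complexes are encoded in the nucleus.

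The sequences around the highest summit of the 5 genes with the strongest optimal peaks are printed because the description of the mitochondrial signal turns on them. Each is 101 bases of the RefSeq sequence of assembly WBcel235, and the capitals mark the summit base of the optimal list with 10 bases on either side. The highest replicate summits lay inside the capitals only for CYTB in replicate 1 and for ND5 and ND4 in replicate 2. The ND4 summit of replicate 1, at 7205, lay before the printed bases.
CYTB, chrM:4664-4764, plus strand: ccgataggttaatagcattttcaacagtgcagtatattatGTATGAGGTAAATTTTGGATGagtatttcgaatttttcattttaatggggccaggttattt
ND5, chrM:12406-12506, plus strand: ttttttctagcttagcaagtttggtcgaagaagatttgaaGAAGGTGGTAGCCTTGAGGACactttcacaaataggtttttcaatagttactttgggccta
COX3, chrM:6014-6114, plus strand: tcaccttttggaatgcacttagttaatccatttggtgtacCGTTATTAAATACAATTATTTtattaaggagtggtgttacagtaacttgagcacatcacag
ND4, chrM:7211-7311, plus strand: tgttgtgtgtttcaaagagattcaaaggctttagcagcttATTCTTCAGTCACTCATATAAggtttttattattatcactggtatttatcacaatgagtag
COX2, chrM:10057-10157, plus strand: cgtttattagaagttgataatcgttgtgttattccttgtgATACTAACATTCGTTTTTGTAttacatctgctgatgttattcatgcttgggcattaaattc
For contrast, 101 bases from the middle of the AT-rich non-coding stretch, in which no list had a region, are given in lower case throughout.
AT-rich stretch, chrM:13511-13611, plus strand: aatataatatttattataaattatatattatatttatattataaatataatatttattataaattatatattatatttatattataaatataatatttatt
The GC content of the 5 summit sequences ran from 31.7% (CYTB, ND4 and COX2) to 37.6% (ND5), with 33.7% for COX3. The AT-rich sequence held no G and no C, while the whole non-coding stretch it came from had a GC content of 6.87%. The genes ND6 and ND4L, also without a region in any ce11 list, had 20% and 18.4%.

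The mitochondrial regions stood at the top of every list. The optimal list, which the irreproducible discovery rate procedure drew from the replicate and pooled lists, held 21 mitochondrial peaks, which were 20.6% of its peaks and took ranks 1 to 21. The 21 mitochondrial rows of the pooled list were the same rows, so none was lost at that step. Replicate 1 had 16 mitochondrial regions among 17743, and these took ranks 1 to 16, with signal values from 234 to 2442 against a highest nuclear value of 104. Replicate 2 had 20 among 12648, with values from 74.9 to 2591. In replicate 2, 19 of the 20 lay above the highest nuclear value, 82.6, and the weakest, in ND1, ranked 21. The signal value is the authors' own score for a region. Its scale is not stated, and it is used here only to order regions within a list. The sequencing depth behind each value is unknown.

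**Figure D1:**
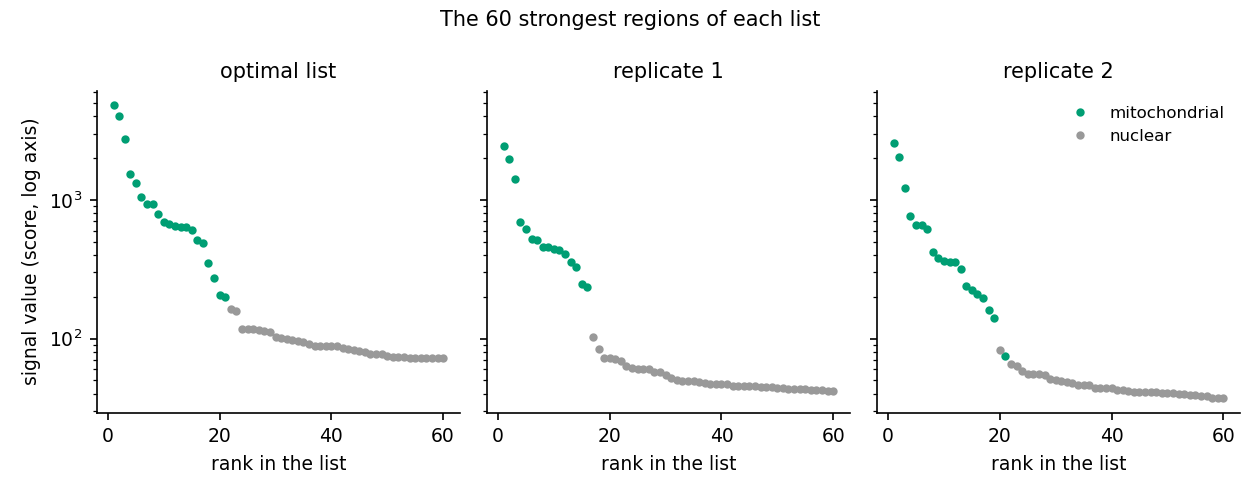
Signal value (score, log axis) against rank for the 60 strongest regions of the optimal list and of each replicate, with mitochondrial regions in green and nuclear regions in grey. Mitochondrial regions hold the first 21 ranks of the optimal list, the first 16 of replicate 1 and 20 of the first 21 of replicate 2.

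In the optimal list 9 of the 10 genes had a summit between their ends, as against 0.175% of nuclear protein-coding genes. In replicate 1 this was 8 genes (37.5% of nuclear genes) and in replicate 2 it was 9 (29.0%). Nothing is read from these counts, since the genes were chosen from the same lists. ND3 was the gene without a summit in these lists, and ND2 had one in replicate 2 but not in replicate 1.

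CYTB, which encodes cytochrome b, carried the strongest region of all 3 lists. The gene lies at 4504 to 5616 of the mitochondrial genome. Its highest signal value was 2442 in replicate 1, 2591 in replicate 2 and 4821 in the optimal list. The summits lay at 4714, 4725 and 4714, which is 210, 221 and 210 bp from the first base of the gene, so the replicates placed it 11 bp apart. A second summit followed in the same region of each list, at 4947 in replicate 1 (688, rank 4), at 4950 in replicate 2 (355, rank 11) and at 4916 in the optimal list (797, rank 9). The second summit was thus placed within 3 bp by the replicates, but it stood higher in the order of replicate 1 than in that of replicate 2. The region itself was 624 bp wide in replicate 1, 1172 bp in replicate 2 and 948 bp in the optimal list. In replicate 2 and the optimal list it reached back over the neighbouring tRNA-Phe, tRNA-Gln, tRNA-Arg and tRNA-Ile genes.

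COX3 was the strongest of the 3 complex IV genes and the third of all genes in each list. It encodes cytochrome c oxidase subunit III and lies at 5678 to 6445. Its highest signal value was 1407 in replicate 1, 1214 in replicate 2 and 2739.6 in the optimal list. Both replicates placed the summit at base 6044, and the optimal list placed it at 6064. A weaker second summit lay at 6253 in replicate 2 (381) and at 6266 in the optimal list (206). Replicate 1 had no second summit there, as its region ended at 6139.

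COX2 encodes cytochrome c oxidase subunit II and lies at 9649 to 10344. It had 1 summit in each list, with signal values of 515 in replicate 1, 664 in replicate 2 and 1329.5 in the optimal list. The summits at 10124, 10146 and 10107 were in the 3′ part of the gene, 65.9% to 71.6% of the way along it. All 3 were within 250 bp of the tRNA-His gene that follows COX2.

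COX1, which encodes the catalytic subunit I of cytochrome c oxidase, had the most summits in the optimal list and in replicate 1, and as many as ND1 in replicate 2. The gene runs from 7845 to 9422. The optimal list had 4 summits in it, at 8256, 8571, 8824 and 9025, with signal values of 645, 351, 640 and 490. Replicate 1 had 3, at 8261 (443), 8822 (327) and 9125 (247), and replicate 2 had 3, at 8261 (211), 8862 (317) and 9065 (142). The replicates gave the first summit the same base but differed on which summit was the highest, the one at 8261 in replicate 1 and the one at 8862 in replicate 2. The optimal summit at 8571 had no summit within 250 bp of it in either ce11 replicate list. The nearest lay 251 bp away in replicate 1 and 291 bp away in replicate 2. Its peak overlapped a region of replicate 2 but none of replicate 1. In the ce10 list of replicate 2, read against the same gene coordinates and looked at after the data were seen, a region had its summit at 8568 (222, rank 18), 3 bp from it.

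ND5, the largest of the complex I genes here, carried the second strongest region of each list. It lies at 11691 to 13274. Its highest signal value was 1987 in replicate 1, 2033 in replicate 2 and 4025 in the optimal list. The summits at 12431, 12454 and 12456 were 46.8% to 48.4% of the way along the gene, and the replicates differed by 23 bp. Replicate 2 had a further narrow region of 116 bp with its summit at 12661 and a signal value of 195. Regions covered 22.7% of ND5 in replicate 1 and 32.8% in replicate 2, which left most of this gene without any.

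ND4 followed CYTB, ND5 and COX3 in each list. It lies at 6506 to 7735 and had 1 summit per list, with signal values of 613 in replicate 1, 762 in replicate 2 and 1540.4 in the optimal list. The summits lay at 7205, 7266 and 7261, and the 61 bp between the replicates was the largest difference for any gene whose highest summits they matched. The region was 484 bp wide in replicate 1, the commonest width of that list, and 132 bp wide in replicate 2.

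ND1 lies at 1763 to 2638, directly after the tRNA-Tyr gene, and was covered over most of its length. Its highest summit had a signal value of 458 in replicate 1 (at 2168), 661 in replicate 2 (at 2224) and 1058 in the optimal list (at 2158). A second summit near the 5′ end of the gene lay at 1887 in replicate 1 (404), 1857 in replicate 2 (225) and 1853 in the optimal list (674). Another summit, at 2423 in replicate 2 and 2358 in the optimal list, was the weakest mitochondrial region of both lists, with 74.9 and 199. Replicate 1 had no summit there. Regions covered 73.9% of ND1 in replicate 1 and 73.2% in replicate 2.

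ATP6, which encodes subunit a of the ATP synthase, lies at 2634 to 3233 and overlaps the end of ND1 in the annotation. Its highest signal value was 523 in replicate 1, 355 in replicate 2 and 936 in the optimal list, with summits at 3019, 3061 and 3021. ATP6 changed its place in the order of the genes more than any other, from the fifth in replicate 1 to the eighth in replicate 2. Replicate 1 had a further region (436) with its summit at 3281, inside the tRNA-Lys gene after ATP6 and nearer to ATP6 than to ND2. Replicate 2 had no summit within 100 bp of it.

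ND2 was the gene on which the replicates differed in kind. It encodes a complex I subunit and lies at 3418 to 4266. In replicate 2 a region with its summit at 3656 had a signal value of 621 and rank 7. Replicate 1 had no summit assigned to ND2, its region of 3039 to 3522 covered only the first 105 bp of the gene, and the nearest summit lay 375 bp away. The optimal list had a summit at 3627 (607) within ND2 and another at 3368 (641) in the tRNA-Ser gene 50 bp before it. Both optimal peaks overlapped a region of each replicate, but for the peak with its summit at 3627 the nearest replicate 1 summit was 346 bp away. For the peak with its summit at 3368 the nearest replicate 2 summit was 288 bp away. Its nearest replicate 1 summit, at 3281, was assigned to ATP6.

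ND3, a short complex I gene of 336 bp at 11356 to 11691, had no summit in the optimal list or in either replicate list of build ce11. The end of a peak whose summit lay in the l-rRNA gene covered 48 bp of it in the optimal list and 59 bp in replicate 2, and no region of replicate 1 touched it. This result depends on the build. In the list of replicate 2 for build ce10 a region of 11240 to 11689 had its summit in ND3, with a signal value of 45.1 and rank 36, the weakest mitochondrial region of that list. That list was chosen for this check after the data were seen. The ce10 mitochondrial sequence was not used here, so this summit was placed with the WBcel235 gene coordinates, since the bounds of all 21 optimal peaks and all 16 regions of replicate 1 were the same in both builds.

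**Figure D2:**
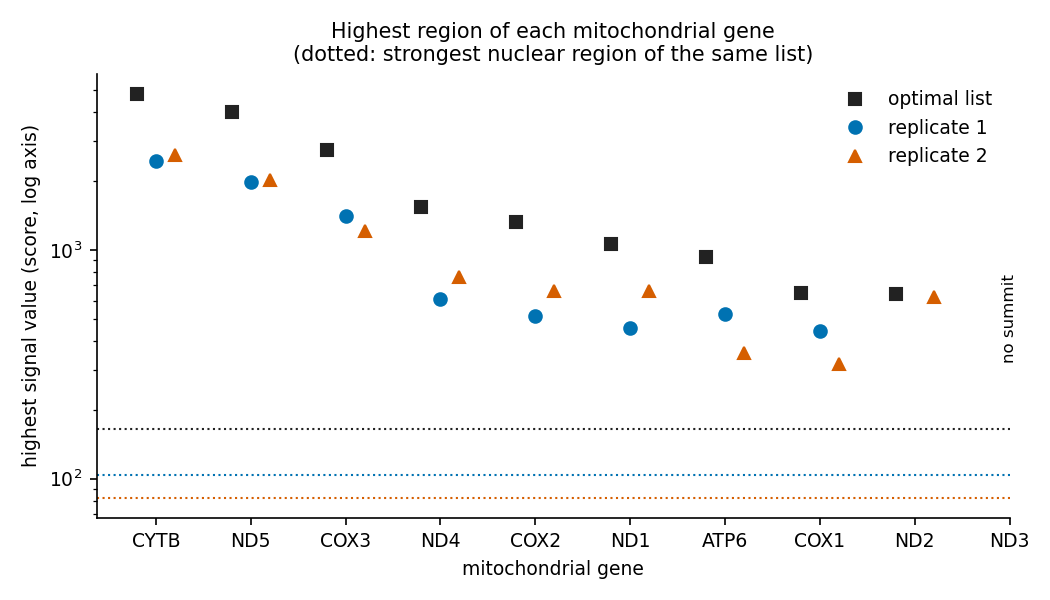
Highest signal value (score, log axis) of a region assigned to each of the 10 genes in the optimal list (squares), replicate 1 (circles) and replicate 2 (triangles), with a dotted line at the strongest nuclear region of each list. The genes that have a region lie above the line of the same list, ND3 has none, and ND2 has none in replicate 1.

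The order of the genes by their highest region was alike at the top and mixed below it. CYTB, ND5, COX3 and ND4 took the first 4 places in that order in both replicates. Of the 8 genes with a summit in both, 4 had the same place, 3 were 1 place apart and ATP6 was 3 places apart. Spearman's rho over the 10 genes was 0.888, with genes without a summit ranked last. The genes share their libraries and the molecule, so rho is a description of these 10 only. Below these, COX2 stood above ND1 and ND1 above COX1 in both replicates. ATP6 stood above COX2 and ND1 in replicate 1 and below them in replicate 2. ND2, without a summit in replicate 1, stood above ATP6 and COX1 in replicate 2. The order of COX2, ND1, ATP6, COX1 and ND2 among themselves is not settled by 2 samples. Over the 9 genes with an optimal region, rho of the highest signal value with gene length was 0.283, and with the GC content of the gene it was 0.183.

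The replicates had most of their mitochondrial summits at nearby places. All 16 mitochondrial regions of replicate 1 overlapped a region of replicate 2, and 19 of the 20 of replicate 2 overlapped a region of replicate 1. An overlap of 1 bp was enough, and regions covered 39.3% of the molecule in replicate 1 and 44.6% in replicate 2. With 50% reciprocal overlap the share of replicate 1 regions was 68.8%. The share over all listed regions was not computed, so nothing particular to these genes is read from the overlap counts. The median distance from a replicate 1 summit to the nearest replicate 2 summit was 22.5 bp, with a range from 0 to 220 bp. Of the 16, 12 were within 50 bp and 15 within 100 bp, and all 16 were assigned to the same gene as that nearest summit. In the other direction the median was 35 bp and the range 0 to 375 bp, the far end being the summit in ND2. Regions of both replicates covered 4256 bp (30.9%) of the mitochondrial genome, regions of replicate 1 alone 1162 bp (8.42%) and regions of replicate 2 alone 1893 bp (13.7%). A set width recurred among the regions. Among the mitochondrial regions 9 of 16 in replicate 1, 4 of 20 in replicate 2 and 8 of 21 in the optimal list had the commonest width of their list, 484, 464 and 456 bp.

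**Figure D3:**
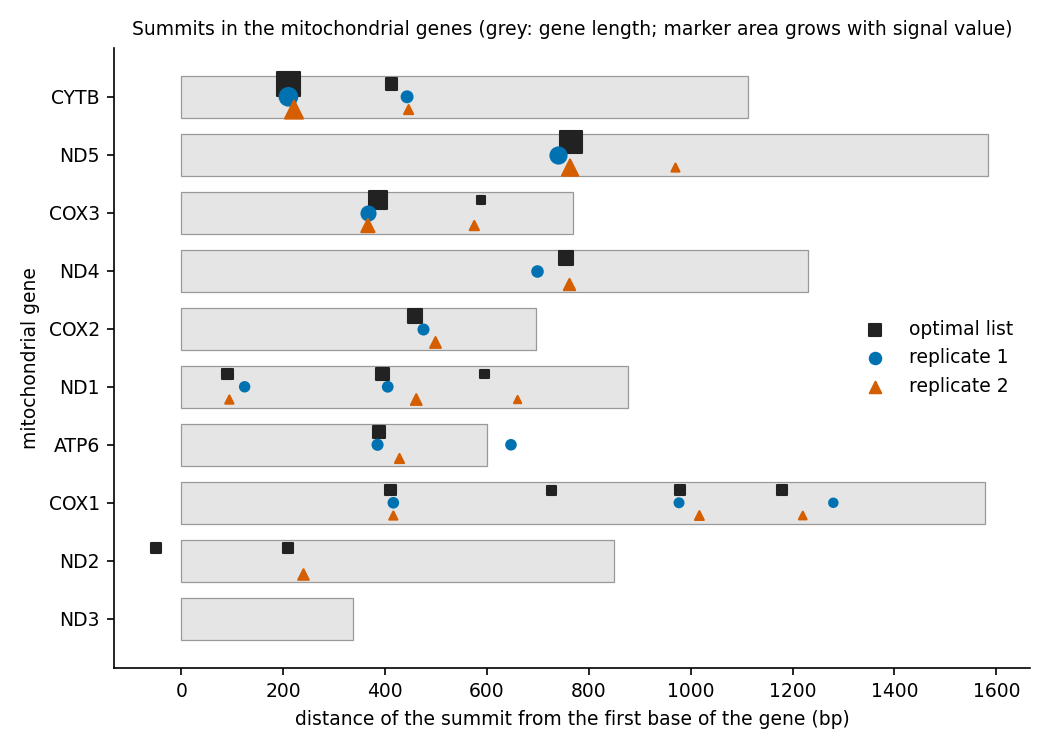
Distance (bp) of each assigned summit from the first base of its gene, for the optimal list (squares), replicate 1 (circles) and replicate 2 (triangles), with gene lengths as grey bars and marker area growing with signal value. The strongest summits of CYTB, ND5 and COX3 lie within 25 bp of each other across the 3 lists, while ND2 has no replicate 1 summit and ND3 has no summit.

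The highest summits were mostly in the inner part of the genes. In the optimal list they lay 45.2% to 65.9% of the way along ND1, ND5, COX3, ND4, ATP6 and COX2. CYTB at 19.0% and COX1 at 26.1% were the genes with the highest summit nearer the 5′ end, and for ND2 the higher of its summits lay before the gene. For COX1 this rested on a signal value of 645 against 640 for the summit 62.1% of the way along. In replicate 2 the highest COX1 summit lay at 64.5%. Of the 21 optimal summits, 16 lay in protein-coding genes, 4 in rRNA genes and 1 in a tRNA gene, and 8 were within 250 bp of a tRNA gene. Of the 13794 bp of the molecule, protein-coding genes held 5061 bp under optimal peaks and 5232 bp outside them. The rRNA genes are 697 and 953 bp long. The share of bases within 250 bp of a tRNA gene was not computed, and nothing is read from these counts. Replicate 1 had 2 summits in tRNA genes and replicate 2 had 0, and the tRNA genes made up 8.98% of the mitochondrial genome.

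The rRNA genes, which encode the RNAs of the mitochondrial ribosome, also carried regions. The highest region of the s-rRNA gene (898 to 1594) had a signal value of 458 in replicate 1, 361 in replicate 2 and 927 in the optimal list. For the l-rRNA gene (10403 to 11355) these values were 234, 423 and 695. Both rRNA genes lay below CYTB, ND5, COX3 and ND4 in all 3 lists.

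ND6 and ND4L, the other 2 protein-coding genes of the mitochondrial genome, carried no region in any ce11 list. Both encode complex I subunits and lie at 113 to 547 and 549 to 782. They fall in the longest stretch without regions. From 12662 to the end of the sequence no replicate had a region over 1133 bp, and since the molecule is a circle the stretch goes on to base 1000, which makes 2133 bp. This stretch holds the last 613 bp of ND5, the AT-rich non-coding stretch of 466 bp at 13329 to 13794, the tRNA-Ala, tRNA-Pro, tRNA-Val, tRNA-Trp and tRNA-Glu genes, ND6, ND4L and the first 103 bp of the s-rRNA gene. Its GC content was 16.8%, against 23.8% for the whole mitochondrial genome.

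**Figure D4:**
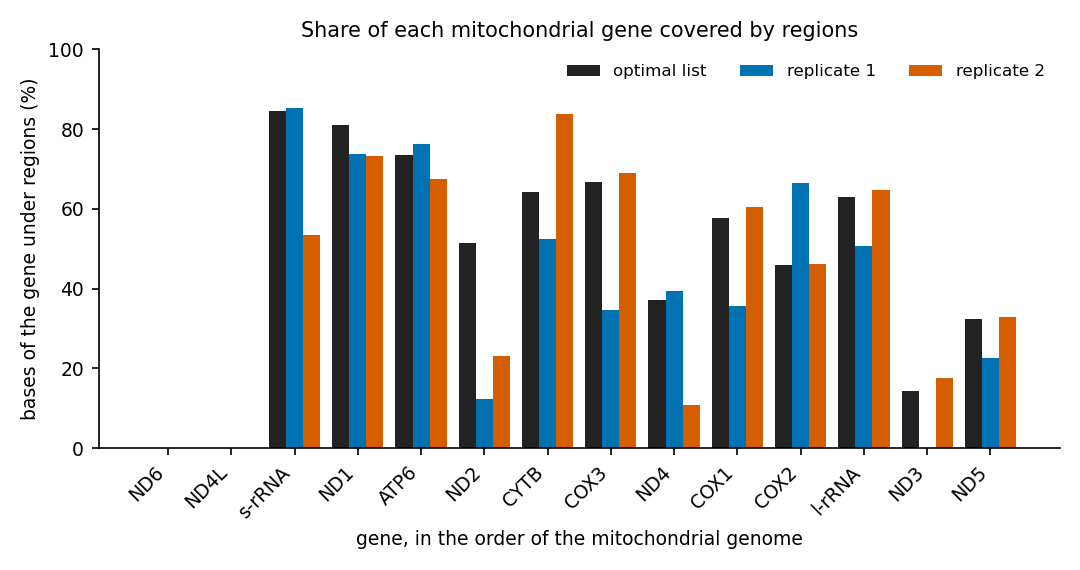
Share of the bases of each mitochondrial protein-coding and rRNA gene under regions (%), in genome order, for the optimal list (black), replicate 1 (blue) and replicate 2 (orange). ND6 and ND4L are at 0 in all 3 lists, ND3 reaches 17.6% in replicate 2, and ND1 stays between 73.2% and 80.9%.

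Other stretches that neither replicate covered lay within or between the 10 genes. The next in length ran from 11415 to 12141 (727 bp) over 277 bp of ND3 and the first 451 bp of ND5. One of 691 bp, from 7447 to 8137, joined the end of ND4 to the first 293 bp of COX1 across the non-coding stretch between them. Stretches of 605 bp (6358 to 6962) and 588 bp (9294 to 9881) held the junction of COX3 and ND4 and that of COX1 and COX2, the latter with the tRNA-Cys, tRNA-Met, tRNA-Asp and tRNA-Gly genes. A stretch of 516 bp (3747 to 4262) was the 3′ part of ND2. Together the replicates left 6483 bp, or 47.0% of the mitochondrial genome, without a region.

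Base composition differed along the genes with the regions. Bases under optimal peaks had a GC content of 27.4%, and bases outside them 20.2%. Within protein-coding genes the values were 27.7% and 21.5%. GC content was higher under the peaks than outside them in 8 of the 10 genes. ND4 had 29.2% under its peak and 18.2% outside, ND5 29.0% and 19.7%, and ND1 26.9% and 17.96%. In COX1, the gene with the highest GC content (29.7%), the values were 29.6% and 29.7%, and in ND3 they were 20.8% and 21.5%. Within 50 bp of the 21 optimal summits GC content was 32.4% ± 4.18 (SD, n = 21 summits), and 20 of them lay above the value of the whole mitochondrial genome. The exception was a summit in the l-rRNA gene at 20.8%. The summits lie on 1 molecule and several share a region, so this SD is not an error between samples. In replicate 1 the mean was 32.3%, with 16 of 16 above, and in replicate 2 it was 30.99%, with 19 of 20 above. The share of all such windows of the molecule above that value is not given here, so nothing is read from these counts. The rank correlation (rho) of signal value with this GC content was 0.141 over the 21 optimal peaks, 0.173 over the 16 of replicate 1 and -0.0358 over the 20 of replicate 2. The part of base composition in where regions were listed was not tested.

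**Figure D5:**
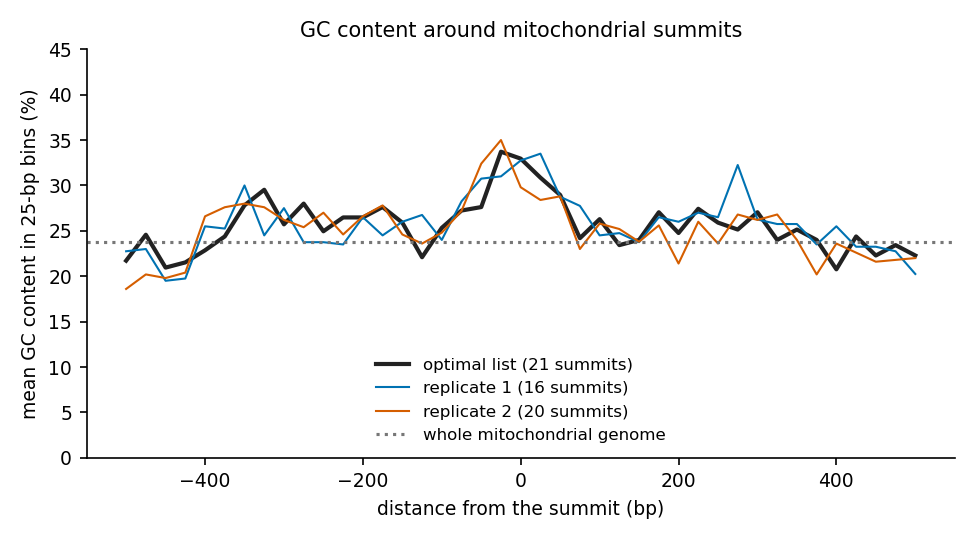
Mean GC content (%) in bins of 25 bp against the distance (bp) from mitochondrial summits of the optimal list (black), replicate 1 (blue) and replicate 2 (orange), with the whole mitochondrial genome at 23.8% as a dotted line. In the optimal list the mean is 33.0% at the summit and 25.3% at 100 bp before it.

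Nearly all of the mitochondrial sequence was distinct in the reference. Of its 13764 words of 31 bases, 98.5% occurred once in the whole reference genome on either strand, and 22 also occurred on a nuclear chromosome. Of the 210 words that occurred more than once, 205 began in the AT-rich non-coding stretch, where only 53.0% of words occurred once. In the optimal peaks this share was 100% except in the CYTB region, where it was 99.5%. Whether repeated sequence kept the AT-rich stretch out of the lists was not tested. In ND6 and ND4L, which also had no region, 100% of words occurred once.

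Nuclear genes that work with the 10 genes were looked up in the same lists. All 49 genes of a list for oxidative phosphorylation and for copying and transcribing mitochondrial DNA were matched to RefSeq symbols. In the optimal list 0 of the 49 had a summit within 1000 bp of the 5′ end, against 0.205% of nuclear protein-coding genes, a share at which 0 of 49 is no result about them. In the pooled list 5 did, against 2.98%, and within 500 bp 1 did, against 1.62%. The 5 were nduf-9 of complex I on chromosome III (signal value 60.5, rank 116), atp-5 of complex V on chromosome V (50.4, rank 284), cox-6A of complex IV on chromosome III (44.4, rank 590), ucr-2.1 of complex III on X (39.9, rank 1103) and the cytochrome c gene cyc-2.1 on chromosome IV (39.4, rank 1191). All 5 also had a summit within 1000 bp in each replicate. The pooled list was made from both replicates, and the same share over all nuclear genes with a pooled summit was not computed. Nothing is read from this count. In the full lists, which hold background regions by design, 22 genes had one in replicate 1 (31.6% of nuclear genes) and 25 in replicate 2 (23.9%), and 13 genes were in both, which is 59.1% and 52.0% of these 2 sets. Over all nuclear protein-coding genes, those in both were 37.7% and 49.9% of the genes of each replicate. The sets were 44.9% and 51.02% of the 49 genes. Within 500 bp there were 14 genes in replicate 1 (against 18.1% of nuclear genes) and 12 in replicate 2 (against 13.4%). Of the 5 genes for copying and transcribing mitochondrial DNA, 2 had a summit within 1000 bp in replicate 1 and 3 in replicate 2. mtss-1, for the mitochondrial single-stranded DNA-binding protein, had a summit in both replicates, with 18.8 (rank 5193) and 16.6 (rank 4645), above the median of nuclear regions in each list (16.5 and 15.5). hmg-5, the worm relative of the packaging protein TFAM, had one in replicate 1 alone (13.4, rank 17392), while polg-1, for the mitochondrial DNA polymerase (13.4, rank 10869), and twnk-1, for the mitochondrial DNA helicase (13.3, rank 11193), had one in replicate 2 alone. The values of hmg-5, polg-1 and twnk-1 lay below the nuclear median of their list. rpom-1, the remaining gene of these 5, had no summit within 1000 bp in either replicate.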

How the data were processed

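Chromatin immunoprecipitation was followed by sequencing in 2 samples of 1 group. The deposited files are narrowPeak region lists, each in a ce10 and a ce11 version. According to the notes that the authors deposited with them, each replicate list was made from its alignment and a control alignment, the pooled list from both replicates, and the optimal list by the irreproducible discovery rate procedure. The signal value is a score deposited by the authors, with its scale not stated. The column that the layout assigns to −log10 q was deposited with 1 shared value for all mitochondrial rows of a list, the highest of that list, so it does not separate them. Which aligner and peak caller were run is not given in the sources used here.

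Summits were taken from the start and offset columns and are printed 1-based. Main coordinates are those of ce11. All region ends lay within the WBcel235 chromosome lengths, and RefSeq gave the genes. The bounds of all 21 optimal mitochondrial peaks were the same in ce10. Nuclear genes were counted if any summit was at most 1000 bp from their 5′ end. Exact 95% binomial intervals served to judge shares under other settings, and cover counting error only. Python 3.11.15, NumPy 2.4.6, pandas 2.3.3 and SciPy 1.17.1 were used, after a check on simulated regions. All 10 genes were named by rule, as were their mitochondrial neighbours and nuclear list genes near optimal or pooled summits. mtss-1, hmg-5, polg-1, twnk-1 and rpom-1 were named after their values were seen. The genes and lists were chosen with earlier results of these data known.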

Additional observations from a re-analysis of the deposited data

How the results depend on the processing

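Each value rests on 2 replicates of 1 group, a score of unstated scale and unknown depth, and the optimal list is not independent of the replicate lists. No paired analysis was possible because there is 1 group. The number of mitochondrial peaks (21) was the same in the ce10 optimal list and in the first 51 peaks of the optimal list. With 1 replicate alone, taking as many of its strongest regions as the optimal list has peaks, it was 16 to 20. Neither cut could lower a count, since no mitochondrial region of these lists ranked below 21. Genes with a summit numbered 7 to 9 under the alternatives run for this count. The ce10 list of replicate 2 was not among them, and there ND3 also had a summit. The covered share of 49.6% moved to 31.3% with the stronger 10 peaks and to 39.3% to 44.6% with 1 replicate. The share of replicate 1 regions met by replicate 2 fell from 100% to 68.8% with 50% reciprocal overlap. The median summit distance of 22.5 bp was 52 bp between midpoints and 35 bp from replicate 2. The rho of 0.888 was 0.809 with summed signal values and 0.857 in ce10. The longest stretch of 1133 bp was 2133 bp on the circle. In ce10 the longest along the linear sequence was 1000 bp, but this was another stretch, at the start of the sequence. A ce10 region of replicate 2 reached 12877 and so shortened the stretch at the end. In ce10 the list of replicate 2 was called with another width and kept none of its ce11 bounds. The GC content of 32.4% was 29.0% within 100 bp and 30.99% to 32.3% with 1 replicate. The count of 0 nuclear list genes was 5 in the pooled list, 1 there within 500 bp and 0 to 1 with 1 replicate. The ND3 count of 0 in replicate 2 became 1 in ce10, and the 1 optimal COX1 summit without a nearby replicate summit became 0. The last 2 and the 500 bp count were chosen after seeing the data. The cause of these moves was not tested, except where fewer peaks or wider windows were used by construction.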
